A study of Aspergillus niger with 16 samples.

Results

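The effect of deleting *gaaR* was examined in mycelium of the filamentous fungus Aspergillus niger after 8 h on sugar beet pectin (SBP). The comparison covers 4 of the 16 libraries of the series, chosen by their labels: 2 of the reference strain (CBS 141257) and 2 of the strain without *gaaR* (CBS 141258, ΔgaaR). In both strains spores were first grown for 16 h in complete medium with 2% D-fructose. The washed mycelium was then moved to minimal medium of pH 6 with 1% SBP as carbon source and shaken at 250 rpm and 30 °C. The labels give no further allele for either strain and do not tell separate cultures from repeat libraries. Part of the scatter behind the p-values and standard errors (SE) may therefore be technical. That scatter was estimated over all 16 libraries of the series, not from the 4 at 8 h alone. The other libraries are D-galacturonic acid (GA) medium for 2 h and SBP for 2 and 24 h, each with both strains.

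Pectin is a plant cell wall polymer whose backbone, homogalacturonan, is a chain of GA units, while rhamnogalacturonan and xylogalacturonan stretches carry further sugars and side chains of arabinan and galactan. A. niger secretes polygalacturonases, lyases, esterases and side chain enzymes that release these sugars, takes up GA through a transporter and converts it in the cytosol to pyruvate and glycerol. GaaR is the zinc cluster transcription factor that activates this programme, and GaaX is a repressor that keeps it off until an intermediate of GA catabolism is present.

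Total expected counts, the read numbers that the RSEM program assigns to genes, were 3772449 and 3604653 in the reference libraries and 3511657 and 3942921 in the ΔgaaR libraries. Of 11580 genes listed in any library of the series, 10003 passed the filter on low counts and were tested. The 2 replicates of a strain lay close together: among genes with a mean of at least 50 reads, 44 (0.68%) were over 2-fold apart in the reference strain and 71 (1.09%) in ΔgaaR. Genes are identified by NRRL3 locus tags only, and 23 tags were given gene names from published knowledge of the pathway. In the RefSeq gene table of another strain, 5 of these names stand at the locus tag recalled for them. They are *pgaI*, *pgaC*, *pgaE*, *pelA* and *pmeA*. The other 18, with *gaaR*, *gaaX* and all named genes of GA uptake and catabolism among them, have no name there. No NRRL3 tag was matched by sequence. For *gaaC* the coding length of 1008 bases exceeds the 966 bases spanned by the gene recalled in that strain, a mismatch that was not resolved. Markers of conidia, the other cell type such cultures could hold, were not matched to tags here, so the label mycelium was not checked against markers.

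The deleted gene was measured first. *gaaR* (NRRL3_08195) had 497 and 514 reads in the reference libraries and 24 and 24 in the ΔgaaR libraries. In FPKM (fragments per kilobase of gene length, scaled to library depth) these were 58.2 and 62.9 against 3.01 and 2.69. Both deletion libraries lay far below both reference libraries, but neither was empty. The log2 fold change was -4.40 (SE 0.61, adjusted p = 3.4e-05, edgeR's quasi-likelihood test with Benjamini-Hochberg adjustment, as for every adjusted p below). The position of the remaining reads within the gene was not given in the files. The adjacent tag, *gaaX* (NRRL3_08194), had 526 and 540.4 FPKM in the reference and 15.7 and 18.7 in ΔgaaR. Both ΔgaaR libraries lay below both reference libraries, as for 37.4% of all genes tested. *gaaX* fell by 4.95 on the log2 scale (SE 0.25, adjusted p = 5.1e-09), a 30.9-fold lower level. Only 79 of the 10003 genes had a lower log2 fold change than *gaaX*, and 129 had a lower one than *gaaR* itself. Such ranks, here and below, count genes with 0 reads in a strain, whose fitted log2 fold change depends on the prior count.

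All 5 genes of GA uptake and catabolism fell without *gaaR*, where 21.4% of all genes tested were called lower. Their median log2 fold change was -5.39, against -0.01 over all genes tested. The names come largely from work on this regulator and were chosen with results of these data known, so the direction of this list and of those below is not independent evidence. In bulk mycelium, fewer hyphae that transcribe a gene and less of its RNA per hypha cannot be told apart.

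The transporter gene *gatA* (NRRL3_00958), whose product brings GA into the cell, had 1134 and 1021 FPKM in the reference libraries and 19.5 and 24.3 in ΔgaaR. It fell by 5.61 (log2, SE 0.40, adjusted p = 3e-08), and the libraries of the strains did not overlap. The 4 catabolic enzymes follow in the order of the pathway. *gaaA* (NRRL3_05650), the GA reductase, had 2673 and 2899 FPKM against 81.7 and 76.2, a log2 fold change of -5.14 (SE 0.35, adjusted p = 2e-08). *gaaB* (NRRL3_06890), the galactonate dehydratase, had 9480.4 and 9789.5 FPKM against 216 and 244, a log2 fold change of -5.39 (SE 0.48, adjusted p = 3.3e-07). By mean FPKM *gaaB* was the transcript at rank 4 of all genes tested in the reference strain and at rank 674 in ΔgaaR.

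*gaaC* (NRRL3_05649), the aldolase that splits the keto-deoxy acid, showed the largest change of the 5. It had 5736 and 6346 FPKM in the reference and 48.9 and 107 in ΔgaaR, a log2 fold change of -6.27 (SE 0.43, adjusted p = 2.3e-08), and 28 genes had a lower one. Its 2 ΔgaaR libraries were over 2-fold apart, with 173 and 426 reads, and without ΔgaaR replicate 2 the log2 fold change was -6.93. *gaaD* (NRRL3_10050), the L-glyceraldehyde reductase of the last step, changed least. Its levels were 7654 and 7493 FPKM in the reference and 1596 and 1273 in ΔgaaR, a log2 fold change of -2.39 (SE 0.35, adjusted p = 4.1e-05). By mean FPKM it went from rank 7 in the reference to rank 88 in ΔgaaR, where the other 4 genes ranked between 674 and 4670.

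The 5 GA genes together took 3.16% and 3.26% of all reads in the reference libraries. In the ΔgaaR libraries they took 0.208% (95% Wilson interval 0.204 to 0.213) and 0.185% (0.181 to 0.189), intervals that cover counting error only. Of those remaining reads, *gaaD* supplied 5632 of 7310 in ΔgaaR replicate 1 and 5032 of 7297 in replicate 2.

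**Figure D1:**
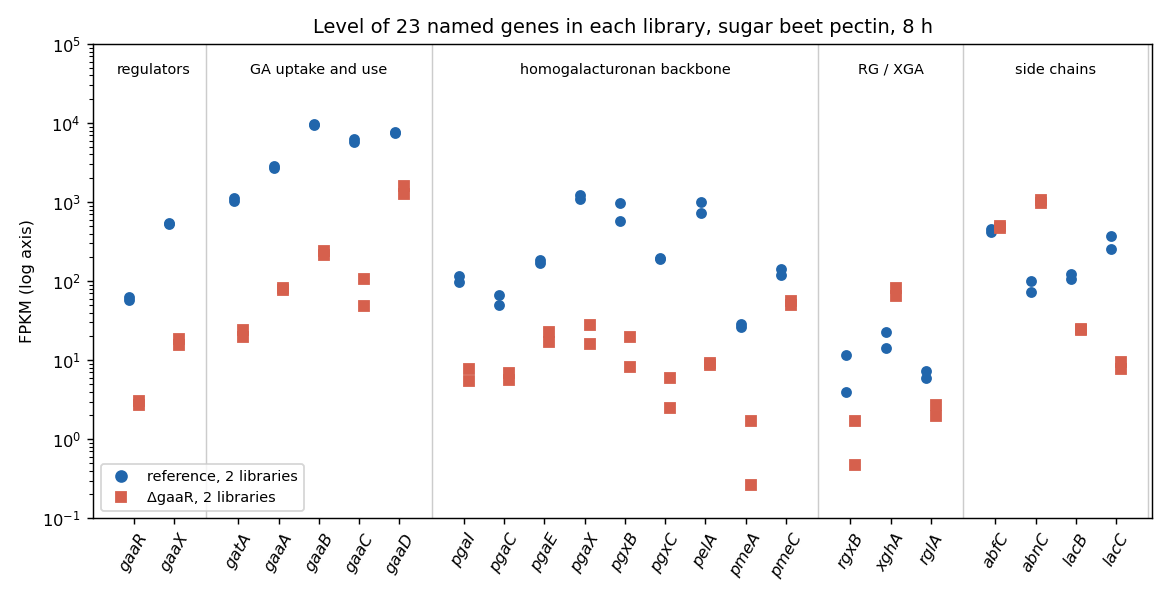
FPKM on a log axis of each of the 23 named genes in the 2 reference libraries (circles) and the 2 ΔgaaR libraries (squares) at 8 h on SBP, grouped by role (RG / XGA, rhamnogalacturonan and xylogalacturonan). The ΔgaaR libraries lie below both reference libraries for 20 genes and above them for *xghA*, *abfC* and *abnC*, though the small difference of *abfC* did not pass the test. Of all genes tested, 37.4% lie below in this way and 36.9% above.

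All 9 named enzymes of the homogalacturonan backbone were called lower, as were 21.4% of all genes tested. Further genes of this family were not searched for. The log2 fold changes of the 9 ran from -6.57 to -1.30, with a median of -4.80. Both ΔgaaR libraries lay below both reference libraries for each of the 9, as for 37.4% of all genes tested. As a group they took 0.38% and 0.49% of reads in the reference libraries and 0.0178% and 0.0128% in ΔgaaR.

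The pectin lyase gene *pelA* (NRRL3_00965), whose product cuts methylated homogalacturonan by elimination, had 734 and 990.3 FPKM in the reference and 8.71 and 9.33 in ΔgaaR. Both ΔgaaR libraries lay far below both reference libraries. The log2 fold change of -6.57 (SE 0.40, adjusted p = 8.1e-09) was the lowest of the 23 named genes, and 18 genes of the whole table had a lower one. The exopolygalacturonases, which take GA units off the chain end, had log2 fold changes close to one another. *pgxB* (NRRL3_08281) had 583 and 987 FPKM against 19.5 and 8.21, a log2 fold change of -5.83 (SE 0.85, adjusted p = 4.2e-05). *pgaX* (NRRL3_03144) had 1079 and 1229 FPKM against 27.6 and 15.8, a log2 fold change of -5.73 (SE 0.92, adjusted p = 0.0001). *pgxC* (NRRL3_05260) had 194 and 189 FPKM against 5.97 and 2.48, a log2 fold change of -5.51 (SE 0.38, adjusted p = 2.1e-08). For all 3 the libraries of the strains did not overlap. Without ΔgaaR replicate 1 the log2 fold changes were further from 0 for *pgxB* (-6.59) and *pgxC* (-6.26).

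The endopolygalacturonases, which cut within the chain, also fell, with log2 fold changes nearer to 0 than those of the exo-acting enzymes. *pgaI* (NRRL3_02571) had 97.2 and 116 FPKM in the reference and 7.69 and 5.49 in ΔgaaR, a log2 fold change of -4.01 (SE 0.47, adjusted p = 4.4e-06). *pgaC* (NRRL3_08805) changed by -3.22 (SE 0.62, adjusted p = 0.00055), from 49.9 and 67 to 5.64 and 6.79 FPKM. *pgaE* (NRRL3_02835) changed by -3.17 (SE 0.31, adjusted p = 8e-07), from 169 and 187 to 22.5 and 16.9 FPKM. Whether the endo-acting and exo-acting enzymes differed was not tested.

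The methylesterases, which free the backbone for polygalacturonases, spanned the range of the list. *pmeA* (NRRL3_08325) had 98 and 103 reads in the reference and 6 and 1 in ΔgaaR, a log2 fold change of -4.80 (SE 0.60, adjusted p = 9.2e-06) that was -6.59 without ΔgaaR replicate 1 and -3.95 without replicate 2. *pmeC* (NRRL3_07470) was the least changed member. It had 121 and 141 FPKM in the reference and 56.5 and 49.4 in ΔgaaR, a log2 fold change of -1.30 (SE 0.38, adjusted p = 0.012). The groups did not overlap, but *pmeC* missed the threshold when reference replicate 2 (adjusted p = 0.071) or ΔgaaR replicate 2 (0.086) was left out, and in limma on log2(FPKM + 0.1) (0.054).

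Enzymes of the other pectin structures went in both directions at 8 h. Of 3 for rhamnogalacturonan and xylogalacturonan, 1 was lower, 1 higher and 1 not called, and of 4 for the side chains 2 were lower, 1 higher and 1 not called. Over all genes tested, 21.4% were called lower and 22.4% higher, so these counts are to be read against that background.

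*rgxB* (NRRL3_08631), an exorhamnogalacturonase gene, was near the detection limit, with 18 and 50 reads in the reference and 2 and 8 in ΔgaaR. Its log2 fold change of -2.77 (SE 0.64, adjusted p = 0.0022) was -1.78 and no longer called without reference replicate 2 (adjusted p = 0.059). It was -3.38 without reference replicate 1, -3.94 without ΔgaaR replicate 2 and -2.19 without ΔgaaR replicate 1. *rglA* (NRRL3_00684), a rhamnogalacturonan lyase gene, had 36 and 42 reads against 11 and 17, with a log2 fold change of -1.49 (SE 0.70, adjusted p = 0.099), and was called in a fit of only the 4 libraries (0.0071). *xghA* (NRRL3_07469), the xylogalacturonan hydrolase gene, rose. It had 22.5 and 14.5 FPKM in the reference and 82.7 and 65.4 in ΔgaaR, a log2 fold change of 2.01 (SE 0.48, adjusted p = 0.003), with the call lost in limma on log2(FPKM + 0.1) (adjusted p = 0.084). Its tag is adjacent to that of *pmeC*, which was lower.

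The β-galactosidase genes, whose products trim galactan side chains, were both lower. *lacC* (NRRL3_11738) had 255 and 374 FPKM in the reference and 9.4 and 7.72 in ΔgaaR, a log2 fold change of -5.20 (SE 0.32, adjusted p = 8.2e-09). *lacB* (NRRL3_02479) had 124 and 107 FPKM against 24.1 and 24.5, a log2 fold change of -2.24 (SE 0.28, adjusted p = 1e-05). The arabinan enzymes did not follow them. The endoarabinanase gene *abnC* (NRRL3_05407) rose from 72.5 and 100.9 FPKM to 1064 and 969, a log2 fold change of 3.55 (SE 0.43, adjusted p = 6e-06), and moved from rank 1743 to rank 145 by mean FPKM. The arabinofuranosidase gene *abfC* (NRRL3_10865) had 461 and 422 FPKM in the reference and 467 and 501 in ΔgaaR. Its log2 fold change was 0.14 (SE 0.26, adjusted p = 0.7), which does not show that the levels were equal.

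Beyond the named genes, 4378 of 10003 genes (43.8%) were called at 8 h, 2240 higher and 2138 lower. Of these 1739 were at least 2-fold higher and 1547 at least 2-fold lower, 216 and 165 at least 16-fold, and 47 and 38 at least 64-fold, as fitted. The log2 fold change of called genes had a median of 1.69 for those that rose and -1.41 for those that fell. Of the 23 named genes 19 were lower, 2 higher and 2 not called. Both ΔgaaR libraries lay above both reference libraries for 3 of them, as for 36.9% of all genes tested.

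**Figure D2:**
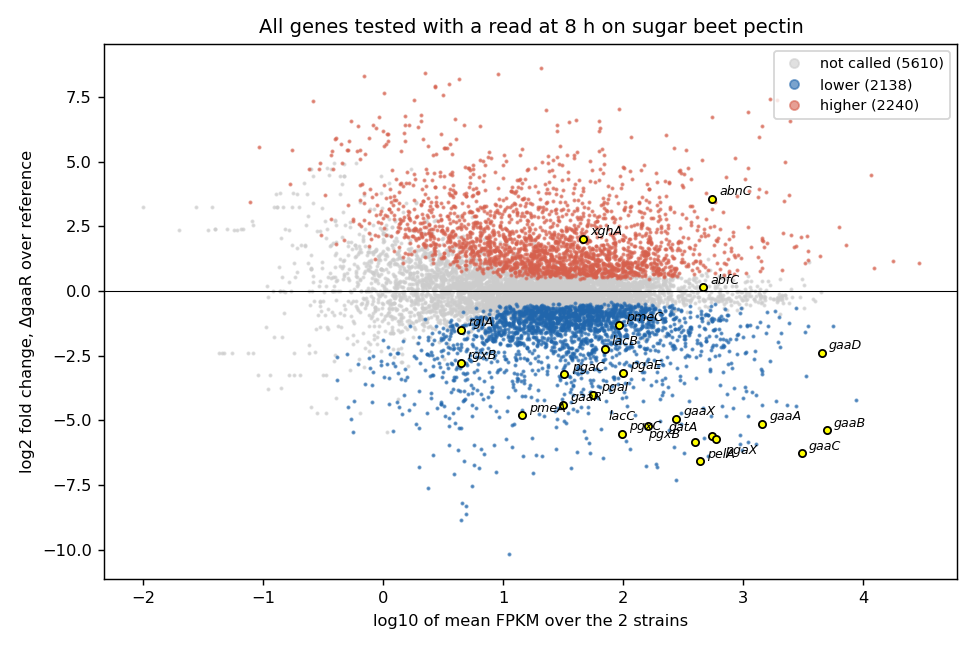
Log2 fold change of ΔgaaR over the reference against the log10 of mean FPKM over both strains for each gene tested that had a read at 8 h, coloured by call (adjusted p under 0.05), with the 23 named genes ringed. The named genes sit mostly at the lower edge of the cloud at high levels, with *abnC* and *xghA* above 0.

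Calls were made at all levels of expression, but at smaller shares among weakly expressed genes. Among the 231 genes with over 1000 FPKM in the higher strain, 80 (34.6%) were lower and 66 (28.6%) higher. Among the 5361 genes between 10 and 100 FPKM, 1259 (23.5%) were lower and 1161 (21.7%) higher. Lower calls at over 1000 FPKM had a median log2 fold change of -2.46, against -1.26 in the class of 10 to 100 FPKM. Among the 2349 genes between 1 and 10 FPKM, higher calls outnumbered lower ones, 451 (19.2%) against 225 (9.58%). Among the 308 genes under 1 FPKM, 24 (7.79%) were higher and 3 (0.974%) lower.

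The make-up of the libraries changed accordingly. Genes called lower took 47% and 46.6% of reads in the reference libraries and 13.1% and 12.9% in ΔgaaR. Genes called higher took 14.1% and 15.6% in the reference and 49.7% and 49.4% in ΔgaaR. Genes that were tested and not called held 37.2% to 38.8% in all 4 libraries. These shares follow from how the genes were chosen and carry no test. Of the 20 transcripts with the highest mean FPKM in each strain 4 were common to both. Of the 20 in the reference strain 13 were lower and 3 higher in ΔgaaR. Of the 20 in ΔgaaR 0 were lower and 18 higher. Over all genes tested 21.4% were lower and 22.4% higher, and choosing genes by their level in a strain favours calls in the matching direction.

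**Figure D3:**
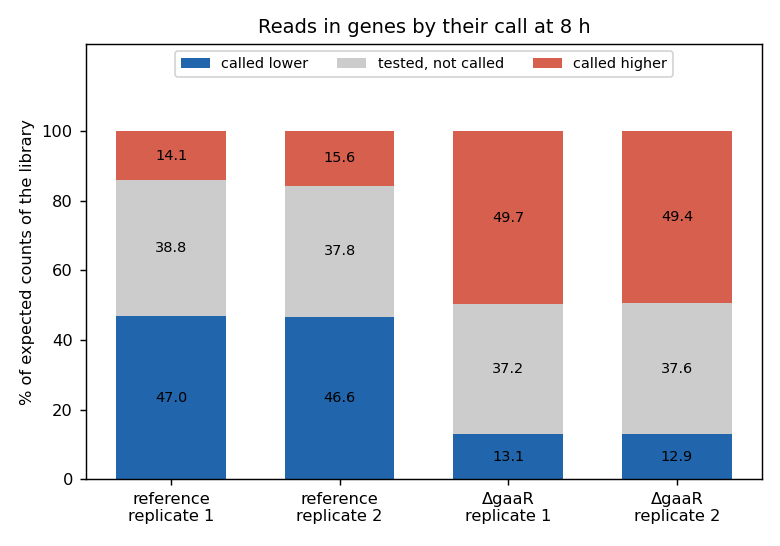
Share of all expected counts in each library (%, stacked bars) that fell in genes called lower, not called or called higher in ΔgaaR at 8 h. Genes called lower held 47% and 46.6% in the reference libraries and 13.1% and 12.9% in ΔgaaR.

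Most of these genes have no name here, as the files pair the tags with no names, and at most 2 tags are given in each direction; these 4 were chosen after their values were seen. NRRL3_01765, with a coding length of 345 bases, was the second most abundant transcript of the reference strain. It had 14427 and 18546 FPKM there and 974 and 798 in ΔgaaR, a log2 fold change of -4.22 (SE 0.52, adjusted p = 7.8e-06). NRRL3_03603 went the other way. It had 768 and 1261 FPKM in the reference and 24852 and 19869 in ΔgaaR, a log2 fold change of 4.46 (SE 0.37, adjusted p = 1.4e-07), and stood at rank 3 by mean FPKM in the deletion strain. The other pair had the lowest and the highest fitted log2 fold change of the called genes with at least 10 FPKM in the higher strain, an order that depends on the prior count since each was at 0 in a strain. NRRL3_02185 had 134 and 140 reads in the reference and 0 in both ΔgaaR libraries, at least 45.9-fold lower from a floor of 3 reads per library. NRRL3_06410 had 0 reads in both reference libraries and 28 and 66 in ΔgaaR, at least 15.2-fold higher from the same floor.

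The 15 lowest and 15 highest called genes by fitted log2 fold change with at least 10 FPKM in the higher strain held 1 named gene, *pelA*, among the lowest. In 5 of the 15 lowest both ΔgaaR libraries had 0 reads, and in 2 of the 15 highest both reference libraries did. Among the 15 lowest 7 had a mean over 100 FPKM in the reference, and among the 15 highest 8 did so in ΔgaaR, up to 4877 FPKM. Counted over the whole table, 14 genes had at least 50 reads in both reference libraries and 3 or fewer in both ΔgaaR libraries, and 14 genes showed the reverse.

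Genes that changed often lay next to one another in the order of the tags. Of the 1547 genes at least 2-fold lower (15.5% of genes tested), 671 (43.4%) had at least 1 adjacent tag that was also at least 2-fold lower. Of all genes tested, 25.1% had such a neighbour. Of the 1739 genes at least 2-fold higher (17.4%), 839 (48.2%) had a neighbour that was also at least 2-fold higher, as had 26.6% of all genes tested. These shares carry no test. Runs of at least 4 consecutive tags numbered 32 with 147 genes among the lower and 42 with 192 genes among the higher. Genes that overlap can share reads, and the files do not say whether counting used the strand, so part of this adjacency may be shared reads and that was not tested.

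The longest lower runs held 8 tags, and one of them includes NRRL3_02185. In that run 6 of 8 genes had 3 reads or fewer in both ΔgaaR libraries and 3 had none, while each had at least 40 reads in every reference library. Its other 2 genes, at the end of the run, had 72 to 93 reads in ΔgaaR against 196 to 217 in the reference, and were also called lower. 2 named genes lay in lower runs, both of 4 tags, *gaaB* and *lacC*.

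Most named genes did not stand in such runs. The same held for genes at least 2-fold lower in general, of which 147 of 1547 lay in runs. The pair *gaaX* and *gaaR* had on its *gaaX* side a gene that fell by 1.11 and on its *gaaR* side one with a log2 fold change of 0.75 that was not called. Next to *gaaC* lay a gene with a log2 fold change of -3.96, and next to *gaaA* one with -0.07 that was not called. Beside *pmeC*, on the side away from *xghA*, lay a gene at -4.90, and next to *gatA* one at -5.09. Of the 158 genes tested within 5 tags of any named gene, 47 (29.7%) were lower and 41 (25.9%) higher, with a median log2 fold change of 0.08. Over all genes tested the shares were 21.4% lower and 22.4% higher, and whether these shares differ was not tested.

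**Figure D4:**
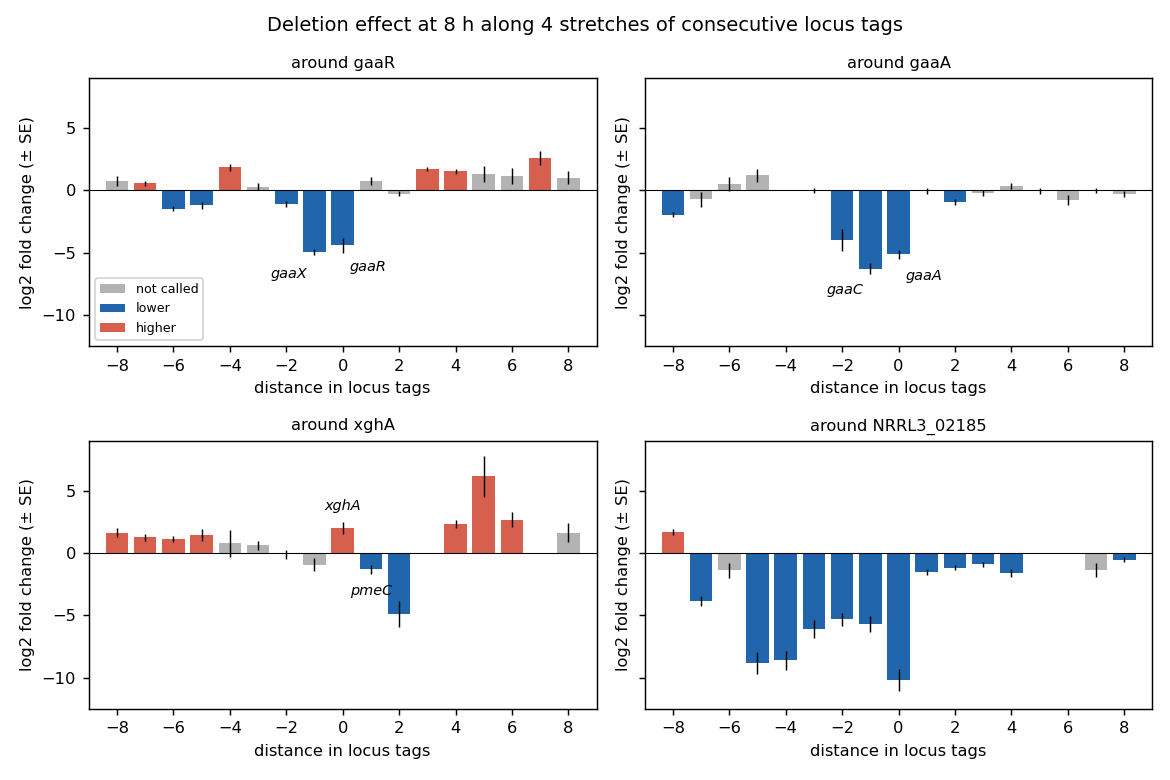
Log2 fold change at 8 h (bars, with SE) of consecutive locus tags around *gaaR*, *gaaA*, *xghA* and NRRL3_02185, with distance counted in tags and colours by call; a gap means that the tag was not tested. The pairs *gaaX*/*gaaR* and *gaaC*/*gaaA* stand out from most of their neighbours, while NRRL3_02185 lies in a run of 8 tags that were each at least 2-fold lower, followed by further tags called lower.

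Whether the deletion effect at 8 h differed from that at 2 h on SBP was tested as the difference of both effects, which share no library. Over all genes 2796 (28%) were called, 1454 with a lower effect at 8 h (14.5%) and 1342 with a higher one (13.4%). The balance turned with the scaling: RLE gave 1274 lower and 1502 higher, and DESeq2 1296 lower and 1509 higher. Without ΔgaaR replicate 2 of 8 h the count of lower effects was 928. Of the 2138 genes lower at 8 h, 347 were also lower at 2 h, 16.2% of the 8 h list and 48.1% of the 721 genes lower at 2 h, which were 7.21% of genes tested. Of the 2240 genes higher at 8 h, 306 were also higher at 2 h, 13.7% of the 8 h list and 41.6% of the 735 at 2 h (7.35%). In the opposite direction, 115 of the genes lower at 8 h were higher at 2 h, and 103 of those higher at 8 h were lower at 2 h.

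None of the 5 GA genes passed this test of a difference between 8 h and 2 h, at adjusted p from 0.085 for *gaaB* to 0.95 for *gaaC*, which does not show equal effects. With DESeq2, *gaaA* (adjusted p = 0.042) and *gaaB* (0.03) did pass, and *gaaB* also without ΔgaaR replicate 2 of 2 h (0.0037). *pelA* differed most of the 3 named genes whose effect was called lower at 8 h, by -4.72 (SE 0.50, adjusted p = 8.1e-06). In the reference it had 43.2 and 38.1 FPKM at 2 h and 734 and 990.3 at 8 h, whereas ΔgaaR had 12.9 and 9.23 at 2 h and 8.71 and 9.33 at 8 h. Only the reference values were high at 8 h.

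The xylogalacturonan and arabinan genes moved the other way between 2 and 8 h. *xghA* had an effect 4.62 higher at 8 h (log2, SE 0.81, adjusted p = 0.00057): it was lower in ΔgaaR at 2 h, with 2.04 and 1.1 FPKM against 13 and 7.01, and higher at 8 h. Without ΔgaaR replicate 1 of 2 h the difference of *xghA* was 5.30. *abfC* had an effect 2.33 higher (SE 0.37, adjusted p = 0.00027). Its ΔgaaR levels were 512 and 543 FPKM at 2 h, while its reference levels were 2706 and 2106 at 2 h and 461 and 422 at 8 h. *abnC* had an effect 2.42 higher at 8 h (SE 0.55, adjusted p = 0.004), with 191 and 264 FPKM in the reference and 599 and 379 in ΔgaaR at 2 h.

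*pgaI* (-1.95, adjusted p = 0.045), *pgaE* (-1.91, 0.045), *pmeC* (1.84, 0.034) and *lacB* (1.07, 0.047) also passed. Each of these 4 calls was lost when single libraries were left out, at adjusted p up to 0.25 for *pgaI*, 0.33 for *pgaE*, 0.15 for *pmeC* and 0.14 for *lacB*. The difference of *pmeC* was 2.43 without ΔgaaR replicate 2 of 2 h. With RLE scaling *pgaI* and *pgaE* did not pass (adjusted p = 0.053 for each). At 2 h *pgaE* had 13 and 15 reads in the reference and 4 and 8 in ΔgaaR. Its effect at 2 h was not called (-1.27, adjusted p = 0.13). The difference of *gaaR* itself (3.998, adjusted p = 0.0074) rested on 0 and 12 reads in ΔgaaR at 2 h and was lost with DESeq2 (adjusted p = 0.085). It was 9.68 without ΔgaaR replicate 2 of 2 h and 3.02 without replicate 1, so its size is not set by these data.

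**Figure D5:**
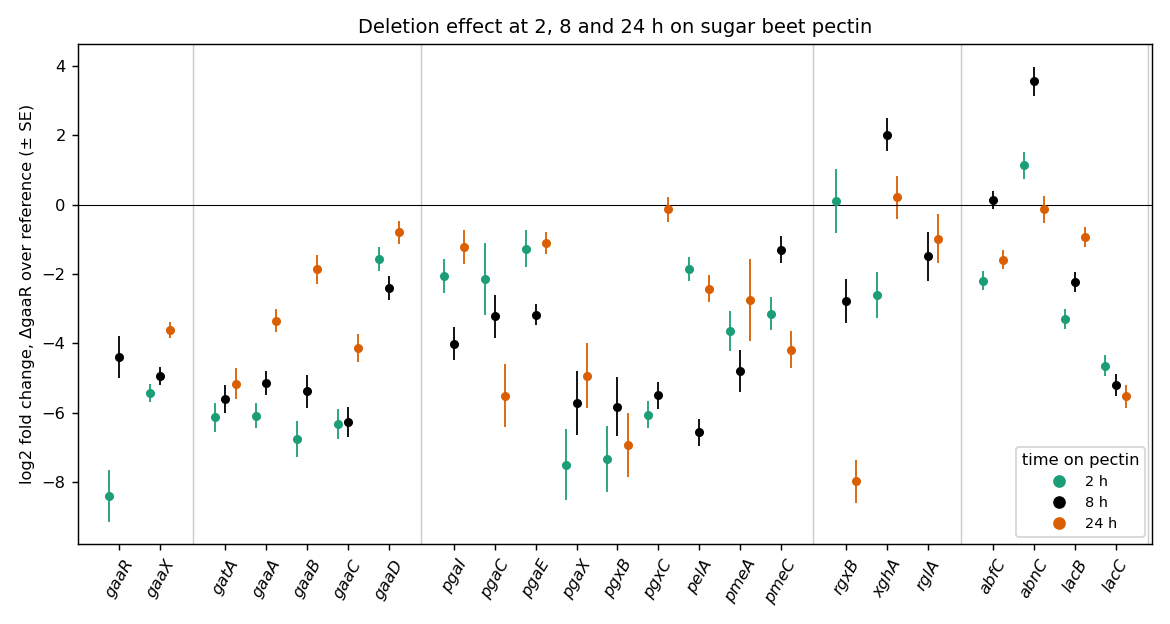
Log2 fold change of ΔgaaR over the reference (points, with SE) for the 23 named genes on SBP at 2, 8 and 24 h; no point is drawn where both ΔgaaR libraries had 0 reads (*gaaR* at 24 h, *rglA* at 2 h). At 8 h *pelA* is lowest at -6.57 and *abnC* highest at 3.55.

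The same test against 24 h called 3391 genes (33.9%), 1545 with a lower effect at 8 h (15.4%) and 1846 with a higher one (18.5%). The share of called genes with a higher effect at 8 h was 54.4%, but 44.7% after scaling by total count. In limma it was 43.3% with a pseudocount of 1 FPKM and 43.5% with 0.1 FPKM. Total count scaling moved the median of all genes from 0.05 to -0.15. Of the genes lower at 8 h 513 were also lower at 24 h, 24% of the 8 h list and 32.4% of the 1585 at 24 h (15.8% of genes tested). Of the genes higher at 8 h 502 were also higher at 24 h, 22.4% of the 8 h list and 39.8% of the 1262 at 24 h (12.6%). In the opposite direction, 194 of the genes lower at 8 h were higher at 24 h, and 344 of those higher at 8 h were lower at 24 h.

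For 4 of the 5 GA genes the deletion effect was called lower at 8 h than at 24 h, as for 15.4% of all genes tested. The difference was -3.52 for *gaaB* (SE 0.59, adjusted p = 0.00025), -2.14 for *gaaC* (SE 0.50, adjusted p = 0.0036), -1.79 for *gaaA* (SE 0.42, adjusted p = 0.0039) and -1.60 for *gaaD* (SE 0.47, adjusted p = 0.015). By 24 h the reference levels themselves were far lower, at 163 and 254 FPKM for *gaaB*, and the ΔgaaR levels were 68.5 and 62.8. The *gaaD* call was lost without ΔgaaR replicate 2 of 8 h (adjusted p = 0.064) or reference replicate 1 of 24 h (0.059), and its difference was -2.25 without reference replicate 2 of 24 h. That of *gaaC* was -2.83 without ΔgaaR replicate 2 of 8 h. *gatA* did not pass, at -0.44 (SE 0.60, adjusted p = 0.62), and *gaaX* had a difference of -1.33 (SE 0.31, adjusted p = 0.0035). At 24 h alone the effect on *gaaD* was -0.80 (SE 0.33, adjusted p = 0.089) and was not called.

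Among backbone enzymes *pgxC* differed most from 24 h, by -5.37 (SE 0.51, adjusted p = 1.2e-06), since it was at 7.92 and 7.87 FPKM in the reference and 7.13 and 9.29 in ΔgaaR at 24 h. *pelA* (-4.15, adjusted p = 2.1e-05), *pgaI* (-2.79, 0.0051) and *pgaE* (-2.06, 0.0015) were also lower in effect at 8 h. The reference libraries of 24 h differed for *pgaI*, with 79 and 19 reads, and its difference was -4.18 without replicate 1 and -2.09 without replicate 2. Without the same replicate 1 that of *pelA* was -4.88, and without ΔgaaR replicate 1 of 8 h that of *pgxC* was -6.13. *pmeC* was the 1 backbone enzyme with a weaker fall at 8 h that passed, by 2.88 (SE 0.67, adjusted p = 0.0034). It was 1.78 without reference replicate 1 of 24 h and 3.50 without replicate 2. *abnC* had an effect 3.69 higher at 8 h (SE 0.56, adjusted p = 0.00011). At 24 h it stood at 1893 and 2666 FPKM in the reference and 2269 and 2462 in ΔgaaR, ranges that overlap, so the reference libraries were low at 8 h and not at 24 h. *abfC* differed by 1.73 (adjusted p = 0.0019) and *rgxB* by 5.21 (adjusted p = 0.0018), the latter lost without ΔgaaR replicate 2 of 8 h (4.01, adjusted p = 0.14). The difference of *rgxB* was 4.603 and 6.204 without reference replicates 1 and 2 of 8 h. *lacB* differed by -1.31 (adjusted p = 0.018), a call lost without any 1 of 4 libraries (adjusted p from 0.05 to 0.11).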

How the data were processed

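The authors deposited for each library a table of expected counts and FPKM per gene, and the submitters' processing notes name Bowtie2, BWA and RSEM, with no versions; settings are not given in the sources used here. A gene missing from a library's table was taken as 0. The deposited expected counts, of which 0.326% were not whole, were rounded and fitted in edgeR 4.0.16 (R 4.3.3; TMM scaling, filterByExpr, quasi-likelihood F test), with all 16 libraries in 1 fit and 1 mean per group. Genes with a Benjamini-Hochberg adjusted p under 0.05 were called, and SE is the log2 fold change divided by the square root of F. The deposited FPKM values, which the authors scaled by gene length and library depth, served for levels, ranks and limma. They do not follow exactly from coding length and expected counts. DESeq2, limma, other scalings and left-out libraries were alternatives. Counts for 8 h were also simulated with 200 of 9680 genes changed, none of them of low count, at a fixed dispersion shared by all genes. There 37% of 2-fold and 100% of 4-fold changes were recovered, and 5.52% of calls were false. In the data 43.8% of genes were called and dispersion varied by gene, so these rates need not hold for the results at 8 h.

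Members and gene lists were chosen with earlier results of these data known. The rule for names covered *gaaR*, *gaaX* and the GA genes, and a maximum of 4 called genes from any other list. The remaining named members, outside that rule, are given as well. Further members by product name were not searched for. Unnamed genes were counted among the 15 highest and lowest called genes with at least 10 FPKM, the most abundant transcripts and the runs. Lists that need product names, and conidial markers, were not analysed here. Replicate deviations of both strains at 8 h had a correlation of 0.0986 over 6705 genes. It rests on the replicate difference within each strain and does not settle whether replicate numbers pair the strains.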

Additional observations from a re-analysis of the deposited data

Results flagged for a closer look

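These named genes have a deletion effect at 8 h that differed from the effect at another time on SBP, by the test of the difference itself (log2 effect at 8 h minus that at the other time, adjusted p under 0.05 in edgeR's quasi-likelihood test); no explanation is weighed.

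Against 2 h the effect was lower at 8 h for *pelA* (-4.72), *pgaI* (-1.95) and *pgaE* (-1.91). It was higher for *xghA* (4.62), *gaaR* (3.998), *abnC* (2.42), *abfC* (2.33), *pmeC* (1.84) and *lacB* (1.07). The value of *gaaR* rests on 0 and 12 reads at 2 h in ΔgaaR and was 3.02 and 9.68 without either of these libraries. For *xghA* the effects had opposite signs, -2.61 at 2 h and 2.01 at 8 h.

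Against 24 h the effect was lower at 8 h for *pgxC* (-5.37), *pelA* (-4.15), *gaaB* (-3.52), *pgaI* (-2.79), *gaaC* (-2.14), *pgaE* (-2.06), *gaaA* (-1.79), *gaaD* (-1.60), *gaaX* (-1.33) and *lacB* (-1.31). It was higher for *rgxB* (5.21), *abnC* (3.69), *pmeC* (2.88) and *abfC* (1.73). The value of *rgxB* rests on 2 and 8 reads in ΔgaaR at 8 h and 3 and 2 at 24 h. It was 4.01 without ΔgaaR replicate 2 of 8 h. *pmeC* had 6 and 11 reads in ΔgaaR at 24 h. The value of 8.14 for *gaaR* rests on 0 reads in both ΔgaaR libraries at 24 h and depends on the prior count of the fit, so it is no measure of size. The 24 reads of *gaaR* in each ΔgaaR library at 8 h stand beside 0 and 12 at 2 h and 0 and 0 at 24 h.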

How the results depend on the processing

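Counts of genes called at 8 h stayed within 1.5 times under every alternative run. Leaving out 1 library gave 1534 to 1811 higher and 1547 to 1684 lower genes. For the effect at 8 h minus 2 h these ranges were 942 to 1320 higher and 928 to 1501 lower, the lowest without ΔgaaR replicate 2 of 8 h, and for 8 h minus 24 h they were 1418 to 1735 and 1202 to 1385. With a minimum of 4-fold, runs of neighbours numbered 13 higher and 15 lower; fewer genes pass that minimum. With the replicate block 2241 genes were higher and 2143 lower at 8 h; the differences from 2 h of *pgaE* (adjusted p = 0.052) and *lacB* (0.053) were then not called and that of *rgxB* was (0.029), with no other named call changed. No called value of a named gene changed sign. Uncalled differences did so in 8 cases. For *gaaC* against 2 h (0.06) these were -0.03 and -0.035 in limma with 1 and 0.1 FPKM added, and leaving out 1 library gave -0.557 to 0.51, negative in 3 cases. For *pgxC* against 2 h (0.56) leaving out 1 library gave -0.201 to 1.13, negative without ΔgaaR replicate 1 of 8 h. Against 24 h, *rglA* (-0.51) ranged from -3.026 to 0.36, positive without reference replicate 2 of 24 h, and *lacC* (0.33) gave -0.129 in limma with 1 FPKM added. The balance of higher and lower differences turned with the scaling against both times. The next counts take each single gene under each alternative as 1 result, so they are not numbers of genes. They cover the 23 named genes and, at 8 h, the unnamed tags given above. At 8 h 318 results kept their direction and side of the threshold, 5 lost their call and 1 gained it. Against 2 h these were 318, 34 and 10, and against 24 h 354, 7 and 5. The cause was not tested. With 2 libraries per group, smaller changes and genes near 0 reads are poorly resolved. The GaaR motif in promoters and its alternative window were not run, because no promoter sequence was used here.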
